A study of Sus scrofa with 6 samples.

Results

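Genes of the sarcomere's Z-disc and of its response to mechanical load were followed in the longissimus dorsi muscle of UCP1 KI and WT pigs. The list held 10 genes, *ANKRD1*, *ANKRD2*, *CSRP3*, *XIRP1*, *XIRP2*, *DES*, *MYOZ1*, *ACTN3*, *LDB3* and *SYNPO2*, taken by pig Ensembl symbol from a matrix of 30476 genes. Of these, 9 were found and passed the filter on low counts, among 13402 genes tested, and *LDB3* had no identifier under its symbol and was not analysed here. The RNA-seq libraries came from 3 UCP1 KI pigs, which carry UCP1 in adipocytes through a CRISPR/Cas9 knock-in, and from 3 WT pigs, all 6 months old, with 1 library per pig. The transgene was made for fat cells and was not directed to the muscle studied here. *UCP1* had no identifier under its symbol and was not looked at here. The study reported no *UCP1* mRNA in the muscle of either genotype, so its counts in this tissue could not serve as a check of the genotypes. Sex, breed and litter are not given in the sources used here. The p values measure only the spread between these pigs.

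The Z-disc is the border of the sarcomere, where thin filaments of neighbouring sarcomeres are cross-linked by alpha-actinin. Desmin filaments tie it to the next myofibril and to the cell membrane. Beyond holding force, the Z-disc and the nearby I-band carry proteins that sense stretch, among them the muscle ankyrin repeat proteins, the LIM protein encoded by *CSRP3* and the Xin proteins, which are known to be induced in loaded, damaged or regenerating muscle. Some members also mark fibre types, such as *ACTN3* and *MYOZ1* in fast fibres and *ANKRD2* and *CSRP3* in slow fibres.

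Libraries held between 30220951 and 35066624 counts on genes, and no pair of columns was identical. Levels are given as CPM, counts per 1000000 after scaling of the library totals with TMM factors between 0.781 and 1.18. The 20 most counted genes took 39.0% to 44.0% of the counts in UCP1 KI pigs and 44.5% to 56.5% in WT pigs, the most in WT replicate 2, which also had the lowest factor. The 9 genes together took between 1.01% and 2.12% of the counts of a pig, and each was counted at least 1333 times in every pig, so depth did not limit their measurement. In the annotation of the assembly Sscrofa11.1 by RefSeq, *ANKRD1* lies on chromosome 14 (102603777 to 102612857), *MYOZ1* on chromosome 14 (76445109 to 76453014), *CSRP3* on chromosome 2 (40219288 to 40240614), *ACTN3* on chromosome 2 (5860386 to 5873779), *XIRP1* on chromosome 13 (23867476 to 23876850), *XIRP2* on chromosome 15 (73665876 to 73741046), *DES* on chromosome 15 (121428539 to 121435426) and *SYNPO2* on chromosome 8 (104677580 to 104844169).

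Of the 9 genes, *SYNPO2* was higher in UCP1 KI pigs past both limits used here, an unadjusted edgeR p below 0.05 together with a log2 fold change beyond 0.5 in either direction, and the other 8 did not pass them. Over all genes tested, 8.19% passed the same limits, 3.84% as higher and 4.34% as lower in UCP1 KI pigs, so 1 of 9 is near the background. No gene of the 9 had UCP1 KI pigs all above or all below the WT pigs. Over all genes tested 15.3% did, 7.59% with the UCP1 KI pigs above and 7.69% with them below. For as few as 9 genes, this too is near the background. The median log2 fold change of the 9 genes was 0.55, beside -0.02 over all genes tested, with 6 values above 0 and 3 below. When single pigs were dropped, this median ranged from 0.064 (without UCP1 KI replicate 2) to 0.94 (without UCP1 KI replicate 3). With p adjusted by Benjamini-Hochberg across the matrix, edgeR called 0 genes below 0.05, where 1100 had such a p unadjusted, and DESeq2 on the same genes called 127.

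**Figure D1:**
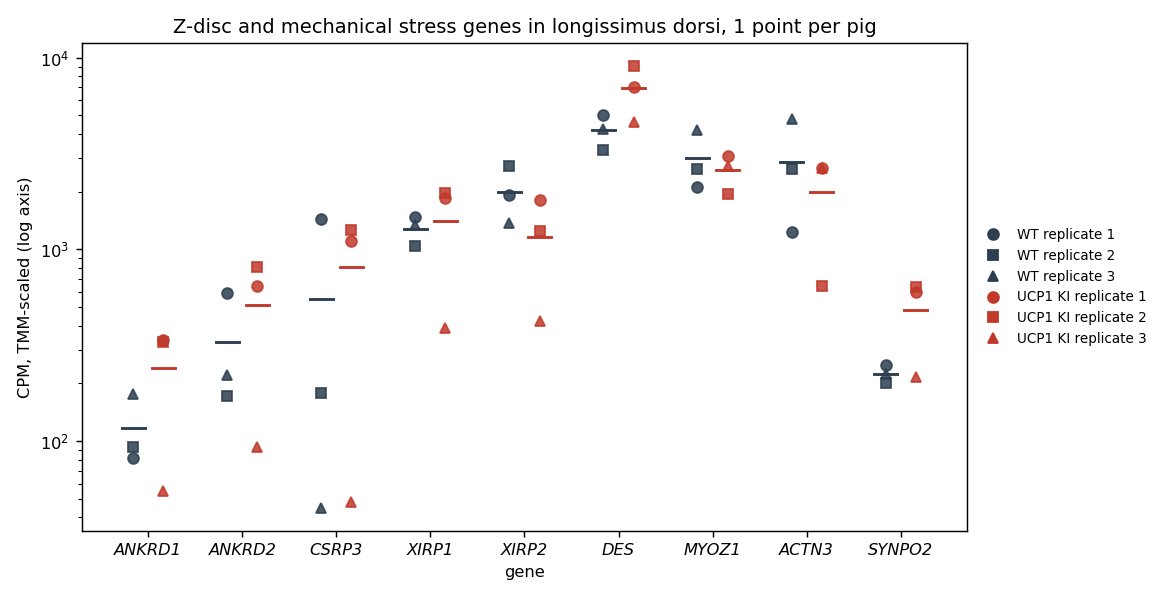
Level of each gene in each pig, in CPM on a log axis, with WT pigs in dark blue, UCP1 KI pigs in red, a symbol for each replicate number and a line at the mean of each group. *CSRP3* ranges from 44.5 to 1436 CPM among WT pigs alone, while the *SYNPO2* values of UCP1 KI replicates 1 and 2 stand above those of the other 4 pigs.

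Among the muscle ankyrin repeat genes, *ANKRD1* (ENSSSCG00000010461) encodes a titin-binding protein that also enters the nucleus and that stretch is known to induce. It was measured at 336, 330.0 and 55.1 CPM in UCP1 KI replicates 1 to 3, and at 81.9, 93.5 and 177 CPM in WT replicates 1 to 3. UCP1 KI replicates 1 and 2 were thus the highest of the 6 pigs and UCP1 KI replicate 3 the lowest, so that the groups overlapped. The mean of the UCP1 KI group was 240.4 ± 160.5 CPM (SD, n = 3), that of the WT group 117 ± 51.9 CPM (SD, n = 3). On the log2 scale the fold change was 1.03 with a standard error of 0.64, and edgeR's quasi-likelihood test gave an unadjusted p of 0.149 and an adjusted p of 0.693. It was 1.51 without UCP1 KI replicate 3, with an unadjusted p of 0.00601 and an adjusted p of 0.411 from the edgeR fit to the other 5 pigs, and *ANKRD1* then passed both limits. In each of the other fits with a pig left out the log2 fold change lay between 0.72 and 1.46 and missed the p limit. The two-sided exact permutation test on all 6 pigs gave p = 0.4, where 0.1 is the smallest p that 3 pigs against 3 allow.

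*ANKRD2* (ENSSSCG00000010522), its paralogue of slow fibres, was at 641, 811 and 92.9 CPM in UCP1 KI replicates 1 to 3 and at 592, 171 and 222 CPM in WT replicates 1 to 3. Here WT replicate 1 joined the high pigs, and UCP1 KI replicate 3 was again the lowest. The log2 fold change of 0.65 (with a standard error of 0.77 and unadjusted p = 0.426 from edgeR) was smaller than its error. It was 0.17 without UCP1 KI replicate 2, 0.34 without WT replicate 2, 0.43 without WT replicate 3, 1.40 without WT replicate 1 and 1.14 without UCP1 KI replicate 3. Within each library, which makes the comparison independent of scaling, *ANKRD2* had 1.91, 2.46 and 1.69 counts for each count of *ANKRD1* in UCP1 KI replicates 1 to 3, and 7.23, 1.83 and 1.25 in WT replicates 1 to 3. WT replicate 1 stood apart in this ratio. The difference between genotypes in its log2 was -0.36 (two-sided exact permutation test, p = 0.9, and 0.9 after Benjamini-Hochberg adjustment over 3 ratios), and it was 0.40 without WT replicate 1. *ANKRD23*, the third gene of this family, ran differently, with 667, 132 and 914 CPM in UCP1 KI pigs and 199.8, 386 and 339 CPM in WT pigs, and 0.89 as log2 fold change (standard error 0.63, unadjusted p = 0.200 from edgeR). It did not pass the limits, except in the fit without UCP1 KI replicate 2.

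*CSRP3* (ENSSSCG00000013354), which encodes the muscle LIM protein of the Z-disc, varied more than the other members. Its levels were 1105, 1269.7 and 48.0 CPM in UCP1 KI replicates 1 to 3 and 1436, 177 and 44.5 CPM in WT replicates 1 to 3. There were high and low pigs in both genotypes, 26.4-fold apart among UCP1 KI pigs and 32.3-fold apart among WT pigs. The SD between pigs of the same genotype was 2.58 on the scale of log2(CPM + 1), and 0.112% of the 6265 genes with a mean above 10 CPM had a larger one. The median SD of these genes was 0.34. Its log2 fold change of 0.55 carried a standard error of 1.34 (unadjusted p = 0.693 from edgeR), and lay between 0.0026 without WT replicate 3 and 2.86 without WT replicate 1. Its relatives *CSRP1* and *CSRP2*, which are expressed in smooth muscle and other cells, were at 30.0 to 38.5 CPM and 3.05 to 13.1 CPM in the UCP1 KI group, and at 25.6 to 78.2 CPM and 5.44 to 11.14 CPM in the WT group, with log2 fold changes of -0.48 and 0.079 that did not pass the limits.

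The Xin proteins bind actin and filamin, and *XIRP1* (ENSSSCG00000034015) is known as a marker of fibre damage. It was at 1855, 1965 and 391 CPM in UCP1 KI replicates 1 to 3 and at 1468, 1039 and 1334 CPM in WT replicates 1 to 3. *XIRP2* (ENSSSCG00000015917) was at 1816, 1254.5 and 421 CPM in UCP1 KI replicates 1 to 3 and at 1922, 2709 and 1381 CPM in WT replicates 1 to 3. Both genes were lowest in UCP1 KI replicate 3, and the WT pigs lay within 1.41-fold of each other for *XIRP1* and within 1.96-fold for *XIRP2*. With unadjusted p values of 0.821 and 0.189 from edgeR, neither *XIRP1* nor *XIRP2* passed both limits. The log2 fold change was 0.13 (standard error 0.56) for *XIRP1* and -0.78 (standard error 0.54), beyond the fold change limit, for *XIRP2*. It was -0.12 and -0.18 for *XIRP1* without UCP1 KI replicate 1 or 2, and for *XIRP2* it was -0.38 without UCP1 KI replicate 3, -0.51 without WT replicate 2 and -1.25 without UCP1 KI replicate 1. The ratio of *XIRP1* to *XIRP2* within a library was 1.02, 1.57 and 0.928 in UCP1 KI replicates 1 to 3 and 0.764, 0.384 and 0.966 in WT replicates 1 to 3, so only UCP1 KI replicate 3 lay below a WT pig, WT replicate 3. On the log2 scale it differed by 0.80, beside SDs of 0.40 among UCP1 KI and 0.69 among WT pigs, and a two-sided exact permutation test, which cannot go below 0.1 here, gave p = 0.2, or 0.6 after adjustment over 3 ratios. The difference was 0.41 without WT replicate 2.

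*ANKRD1*, *ANKRD2*, *XIRP1* and *XIRP2* thus were the 4 members whose lowest level was in UCP1 KI replicate 3. The share of genes above 10 CPM with a larger spread between pigs of the same genotype was 3.74% for *ANKRD1*, 1.92% for *ANKRD2*, 6.24% for *XIRP1* and 8.46% for *XIRP2*. It was 4.25% for *ACTN3*, 16.2% for *SYNPO2*, 34.2% for *MYOZ1* and 36.5% for *DES*.

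**Figure D2:**
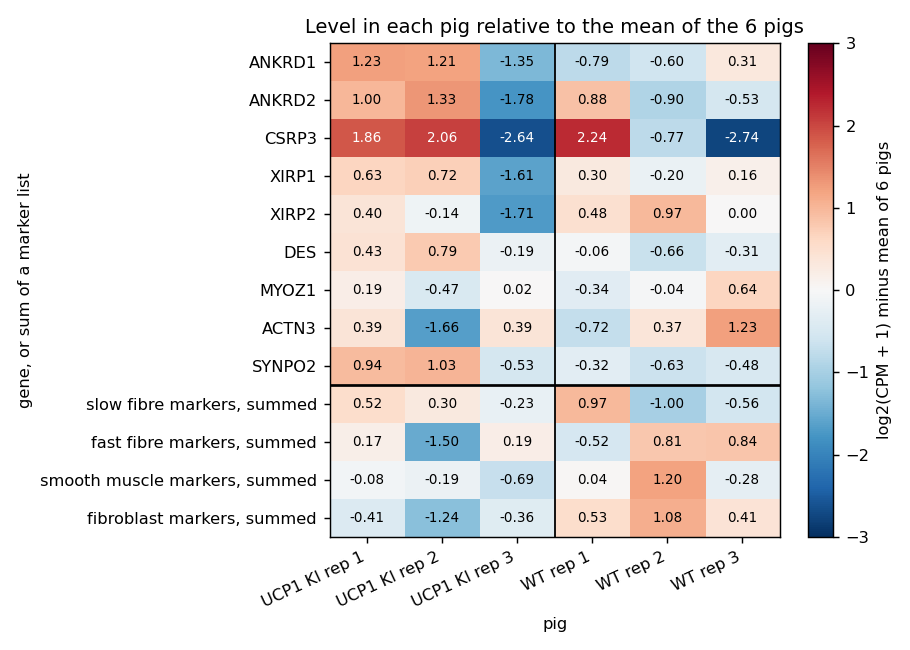
Level of each gene, and of 4 summed marker lists, in each pig as log2(CPM + 1) minus the mean of the 6 pigs, with red for higher and blue for lower. *CSRP3* and *ANKRD2* are above their mean in UCP1 KI replicates 1 and 2 and WT replicate 1, as the slow fibre markers are, and *ACTN3* is lowest in UCP1 KI replicate 2, as the fast fibre markers are.

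*DES* (ENSSSCG00000020785), which encodes desmin, the intermediate filament protein of muscle, was at 7065, 9113 and 4616 CPM in UCP1 KI replicates 1 to 3 and at 5045, 3321 and 4226 CPM in WT replicates 1 to 3. UCP1 KI replicates 1 and 2 were above every WT pig and UCP1 KI replicate 3 lay among them. The UCP1 KI mean was 6931 ± 2251 CPM (SD, n = 3) and the WT mean 4197 ± 862 CPM (SD, n = 3), for a log2 fold change of 0.72 (standard error 0.40). Its unadjusted p was 0.108 and its adjusted p 0.656 from edgeR, so *DES* did not pass the limits, while DESeq2 on the same genes gave it the same log2 fold change of 0.72 and an unadjusted p of 0.0404, which passed them. The value stayed between 0.47 and 0.94 with each pig left out. *SYNM*, whose protein joins desmin in the same filaments, had no identifier under its symbol.

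*ACTN3* (ENSSSCG00000038323), the alpha-actinin of fast fibres, was at 2659, 643 and 2657 CPM in UCP1 KI replicates 1 to 3 and at 1228, 2614 and 4772 CPM in WT replicates 1 to 3. The lowest value was that of UCP1 KI replicate 2 and the highest that of WT replicate 3, and the log2 fold change of -0.53 had a standard error of 0.66 (unadjusted p = 0.445 from edgeR). It was 0.051 without WT replicate 3. *ACTN2*, the alpha-actinin found in all fibres, varied less, with 1372, 1481 and 808 CPM in UCP1 KI pigs and 1278, 786 and 932 CPM in WT pigs. The ratio of *ACTN3* to *ACTN2* counts was 1.94, 0.434 and 3.29 in UCP1 KI replicates 1 to 3 and 0.961, 3.32 and 5.12 in WT replicates 1 to 3. This ratio therefore spanned a wide range in both genotypes, and its log2 difference of -0.85 was smaller than the SDs of 1.51 among UCP1 KI and 1.25 among WT pigs (two-sided exact permutation test, p = 0.5, and 0.75 after adjustment over 3 ratios). It was -0.0080 without UCP1 KI replicate 2, -0.35 without WT replicate 3, -1.56 without WT replicate 1 and -1.47 without UCP1 KI replicate 3. How reads shared between such similar genes were counted is not given in the sources used here.

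*MYOZ1* (ENSSSCG00000010304) encodes a calsarcin of fast fibres, which binds alpha-actinin and the phosphatase calcineurin. It was at 3077, 1948.5 and 2728 CPM in UCP1 KI replicates 1 to 3 and at 2128, 2630.1 and 4188 CPM in WT replicates 1 to 3. Its lowest values were in UCP1 KI replicate 2 and WT replicate 1, the same pigs in which *ACTN3* was lowest. The log2 fold change of -0.21 (with a standard error of 0.38 and unadjusted p = 0.605 from edgeR) was 0.12 without WT replicate 3. *MYOZ3* lay between 154 and 640.2 CPM over the 6 pigs, with a log2 fold change of -0.25 that did not pass the limits, and *MYOZ2*, the calsarcin of slow fibres, had no row in the matrix.

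*SYNPO2* (ENSSSCG00000009111) encodes a PDZ-domain protein of the Z-disc, also called myopodin, that binds actin and filamin and works with the co-chaperone BAG3 in the removal of damaged filamin. It was at 599, 636 and 215 CPM in UCP1 KI replicates 1 to 3 and at 249, 200.2 and 223 CPM in WT replicates 1 to 3. UCP1 KI replicates 1 and 2 were far above all WT pigs, and UCP1 KI replicate 3 lay within their range. *SYNPO2* was thus 2.16-fold higher in UCP1 KI pigs, with means of 483 ± 233 CPM (SD, n = 3) against 224 ± 24.6 CPM (SD, n = 3). For its log2 fold change of 1.11 (standard error 0.42), edgeR's quasi-likelihood test gave an unadjusted p of 0.0304 and an adjusted p of 0.583, and 686 genes of the matrix had a smaller p. The two-sided exact permutation test over the 6 pigs gave p = 0.3. Without UCP1 KI replicate 3 the value was 1.46 (unadjusted p = 0.00136 from the edgeR fit to 5 pigs). In each of the other fits with a pig left out the log2 fold change stayed between 0.86 and 1.19 and missed the p limit. The call was also lost in the fit blocked on replicate number, at 0.97 (unadjusted p = 0.0578 from edgeR). *SYNPO2L*, its paralogue, was at 213, 294 and 149 CPM in UCP1 KI pigs and 245, 123 and 277 CPM in WT pigs, with a log2 fold change of 0.025 that did not pass the limits.

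**Figure D3:**
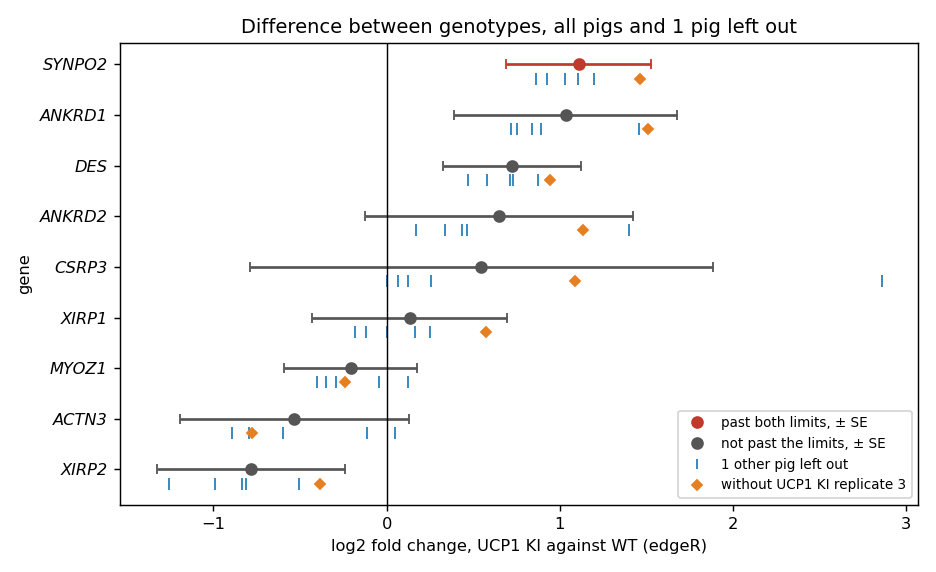
Log2 fold change of each gene between UCP1 KI and WT pigs from edgeR, with bars of ± 1 standard error, and below each point the values with a pig left out. *SYNPO2* at 1.11 is the gene past both limits, and the *CSRP3* values run from 0.0026 to 2.86 depending on which pig is left out.

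*SYNPO2* and *DES* are also expressed in smooth muscle cells, which lie in vessel walls. In bulk tissue, fewer cells of a type and less RNA per cell cannot be told apart. The summed level of 7 smooth muscle markers was 193 to 295 CPM in UCP1 KI pigs and 258 to 719 CPM in WT pigs, with 5 of the 6 tested having negative log2 fold changes and 0 passing the limits, and *MYOCD*, a defining regulator of these cells, was at 0.292 CPM or less in every pig. The largest of these sums was that of WT replicate 2, the pig with the lowest *SYNPO2* and the lowest *DES*. The part of smooth muscle cells in the levels of both genes was not tested.

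Fibre type markers differed widely between pigs of the same genotype. The 7 slow fibre markers found, the troponins *TNNI1*, *TNNT1* and *TNNC1*, the myosin light chains *MYL2* and *MYL3*, the calcium pump *ATP2A2* and *MYBPC1*, summed to 14045, 12061 and 8383 CPM in UCP1 KI replicates 1 to 3, against sums of 19241, 4903 and 6644 CPM in WT replicates 1 to 3. The 3 pigs with the highest sums, WT replicate 1 and UCP1 KI replicates 1 and 2, were the 3 with the highest *CSRP3* and the highest *ANKRD2*. The 5 fast fibre markers found summed to 46951, 14768 and 47667 CPM in UCP1 KI pigs and to 29226, 73376 and 74958 CPM in WT pigs, and the 2 pigs with the lowest sums, UCP1 KI replicate 2 and WT replicate 1, were the 2 with the lowest *ACTN3* and the lowest *MYOZ1*. None of the slow or fast markers passed the limits between genotypes, with median log2 fold changes of 0.17 and -0.63. The 10 markers of embryonic, regenerating or denervated fibres found summed to 335 to 435 CPM in UCP1 KI pigs and 292 to 842 CPM in WT pigs. Of them, 6 had positive and 4 negative log2 fold changes. *RUNX1* alone passed the limits, higher at 1.38 (unadjusted p = 0.0304 and adjusted p = 0.583 from edgeR). It was at 21.9, 15.3 and 53.7 CPM in UCP1 KI replicates 1 to 3 and 7.42, 10.4 and 17.1 CPM in WT replicates 1 to 3. The part of fibre makeup in the members' levels was not tested. The fast myosins *MYH1*, *MYH2* and *MYH4* and the slow myosin *MYH7* had no usable identifier, and *MYH6*, a near copy of its neighbour *MYH7*, was at 1171 to 8628 CPM. How reads that match both genes were assigned is not given in the sources used here.

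Markers of other cell types differed between the genotypes in part. The summed level of 6 fibroblast markers was 235 to 435 CPM in UCP1 KI pigs and 742 to 1187 CPM in WT pigs, and 4 of the 6, *LUM*, *COL1A1*, *COL1A2* and *COL3A1*, were lower in UCP1 KI pigs past both limits. The 5 adipocyte markers summed to 42.8 to 87.3 CPM and 46.0 to 282 CPM, 4 endothelial markers to 273 to 508 CPM and 251 to 457 CPM, and 5 leukocyte markers to 9.22 to 38.5 CPM and 9.14 to 18.1 CPM. Of these, *TEK* and *CD3E* were higher past the limits. Tendon markers, of interest because the Xin genes and *ANKRD1* are strong at the myotendinous junction, summed to 25.9 to 85.6 CPM in UCP1 KI pigs and 20.6 to 105 CPM in WT pigs, with *FMOD* lower past the limits. The tendon marker *TNMD* was at 0.965 CPM or less in every pig. *COL22A1* was at 3.65 CPM in UCP1 KI replicate 1 and 3.69 CPM in WT replicate 1, and *COMP* at 1.81 and 5.18 CPM. In the other pigs both were at 0.219 CPM or less. Of the 7 tendon markers 2 were tested, *FMOD* and *THBS4*, the latter with a log2 fold change of 0.24. The part of these cell types in the members' levels was not tested.

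Partner genes were taken in 4 lists, in which 72 of 79 genes were found and tested, and 5 passed both limits, of which 4 are described here. With 8.19% of all genes tested past the same limits, this number is near the background. Among 25 other Z-disc and I-band genes, 10 log2 fold changes were positive and 15 negative, and the median was -0.024, beside -0.015 over all genes tested. *PALLD*, which encodes the actin-bundling protein palladin, had the largest value of this list, -1.21 (standard error 0.65, unadjusted p = 0.0986 from edgeR), with 22.7, 9.96 and 27.1 CPM against 48.0, 78.4 and 12.2 CPM in WT pigs. *TCAP*, which caps titin at the Z-disc, *MYOT*, which encodes myotilin, and *PDLIM3*, a PDZ-LIM relative of *LDB3*, had log2 fold changes of -0.0016, -0.15 and 0.22 and did not pass the limits.

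**Figure D4:**
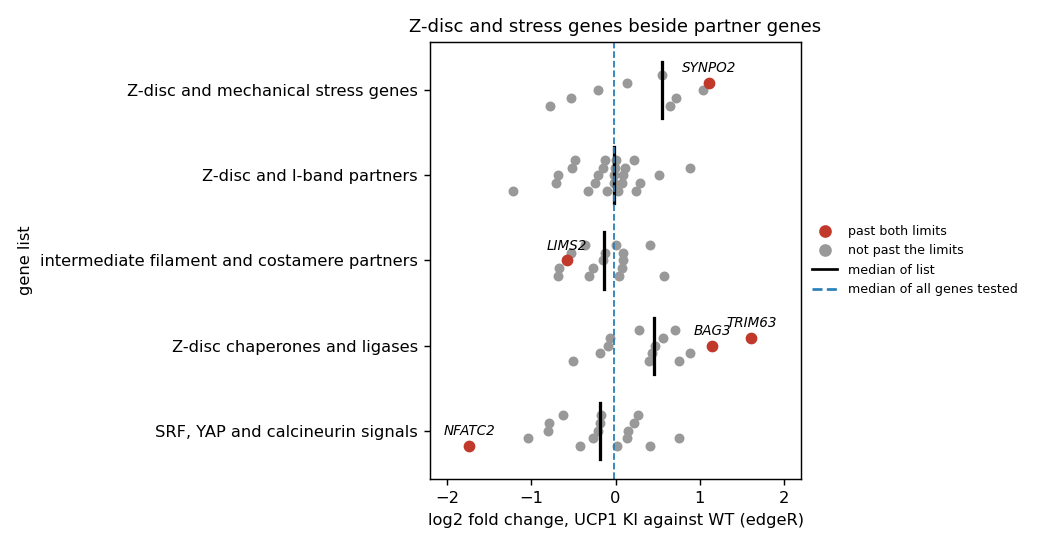
Log2 fold changes of the 9 Z-disc and stress genes and of 4 lists of partner genes from edgeR, 1 point per gene with 1 partner gene not drawn, with genes past both limits in red and named, the median of each list as a black line and that of all genes tested as a dashed line. The medians of the 9 genes (0.55) and of the chaperones and ligases (0.46) lie to the right of the dashed line at -0.02.

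Of 16 intermediate filament and costamere genes, which connect the Z-disc to the membrane, *LIMS2*, an adaptor of integrin-linked kinase, passed the limits. Its levels of 62.8, 44.3 and 46.4 CPM in UCP1 KI pigs were all below the 68.2, 86.1 and 74.2 CPM of WT pigs, and it fell by 0.57 on the log2 scale (standard error 0.24, unadjusted p = 0.0447 and adjusted p = 0.603 from edgeR), a call that 4 of the 6 fits with a pig left out did not make. It was lost as well with scaling by library size only, where the value was -0.32, with all genes that had any count in edgeR or DESeq2, and in the fit blocked on replicate number. The median of this list was -0.14. *NES*, which encodes the intermediate filament protein nestin, had its largest value, -0.68 (standard error 0.38, unadjusted p = 0.114 from edgeR), with 17.2, 18.4 and 7.02 CPM against 18.2, 23.7 and 26.3 CPM.

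The 14 chaperones and ligases of the Z-disc had a median of 0.46, with 10 positive values, and *BAG3* and *TRIM63* passed the limits. *BAG3*, the co-chaperone that binds the SYNPO2 protein, was at 913, 840.0 and 383 CPM in UCP1 KI replicates 1 to 3 and at 318, 258 and 389 CPM in WT replicates 1 to 3. Like *SYNPO2*, it was high in UCP1 KI replicates 1 and 2 and within the WT range in UCP1 KI replicate 3. It rose by 1.15 on the log2 scale (standard error 0.38, unadjusted p = 0.0184 and adjusted p = 0.583 from edgeR), and the call held without UCP1 KI replicate 3 (1.45) or WT replicate 3 (1.31) and was lost in the other 4 fits with a pig left out. *TRIM63*, a ubiquitin ligase of the sarcomere known from muscle atrophy, had another pattern, with 369, 371 and 1734 CPM in UCP1 KI pigs and 192, 232 and 386 CPM in WT pigs. UCP1 KI replicate 3, the pig lowest in *ANKRD1*, *ANKRD2*, *XIRP1* and *XIRP2*, was by far the highest in *TRIM63*. Its log2 fold change of 1.61 (with a standard error of 0.66, unadjusted p = 0.0416 and adjusted p = 0.603 from edgeR) was 0.46 without that pig and no longer passed the limits, and it did not pass them without WT replicate 1 or 2 either. *FLNC*, the filamin that BAG3 and SYNPO2 act on, was at 4351, 4380.4 and 1565 CPM in UCP1 KI pigs and at 2797, 3642 and 3955 CPM in WT pigs, with -0.014 as log2 fold change.

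Among 17 genes of SRF, YAP and calcineurin signalling, which carry mechanical and calcium signals to the nucleus, the median was -0.18 and *NFATC2*, a transcription factor that calcineurin activates, passed the limits. *NFATC2* was at 4.495, 3.70 and 1.03 CPM in UCP1 KI pigs and at 6.34, 15.2 and 9.31 CPM in WT pigs, without overlap. It fell by 1.74 on the log2 scale (standard error 0.57, unadjusted p = 0.0163 and adjusted p = 0.583 from edgeR), and the call was lost without WT replicate 2, at -1.35. The transcription factor *SRF* itself had a log2 fold change of 0.15 and did not pass the limits.

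Profiles over the 6 pigs were compared with all tested genes that have a symbol, by the mean absolute difference of log2(CPM + 1) after centring. The nearest genes to *SYNPO2*, the member with the largest positive log2 fold change, were *MTMR2* at 0.09, *SPSB1* at 0.16 and *EVPL* at 0.17, beside a range of 1.66 for *SYNPO2* itself. *XIRP2*, with the largest negative value and a range of 2.68, was nearest to *EMP3* at 0.12, *CD248* at 0.12 and *FRMD4A* at 0.13.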

How the data were processed

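The authors extracted RNA with TRIzol, made mRNA libraries and sequenced paired ends. Per the labels and the methods of the study, reads were checked with FastQC 0.11.2, trimmed with Trimmomatic 0.36 and mapped with HISAT2 2.0 to Sscrofa11.1, and StringTie 1.3.3b was used for expression values. The program that made the gene counts is not given in the sources used here. The authors deposited raw counts per Ensembl gene without normalization, 1 column per pig, with 0 columns left unused.

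In R 4.3.3, edgeR 4.0.16 kept genes by filterByExpr, scaled libraries with TMM and tested genotype as the only term with the two-sided quasi-likelihood F test. The limits are those of the study, which does not say whether its p was adjusted. Standard errors are the log2 fold change divided by the square root of F. Exact permutation tests used log2(CPM + 1) or log2 ratios with 1 added to counts. Of 5 planned ratios, 3 could be made. Alternatives were DESeq2 1.42.0, other scaling and filters, a replicate block, other limits and each pig left out. The procedure was tested on simulated data. The sources used here do not say whether replicate numbers pair the pigs, and they were not taken as pairs in the main fit.

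Members and lists were chosen with earlier results of these data known. Named genes were all members, a list of their paralogues and related genes that includes *TCAP*, *MYOT* and *SYNM*, the nearest profiles, and in each partner list the genes past both limits and the one with the largest absolute log2 fold change. Of the partner genes, 1 is kept in counts and medians but is not reported here by itself or drawn. *FLNC* and *SRF* were named after their values were seen.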

Additional observations from a re-analysis of the deposited data

How the results depend on the processing

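The number of members past both limits was 1, and it was 2 (*SYNPO2* and *DES*) with library size only and with DESeq2 on the same genes or on all genes with any count, 0 with the replicate number as a block, and 0 at an adjusted p under 0.05 from edgeR. Dropping single pigs gave 0 to 2. Partner genes past the limits numbered 5, ranged from 1 to 12 when single pigs were dropped, and were 0 at the adjusted limit. For all genes tested the count was 1097. It was 678 when UCP1 KI replicate 2 was dropped, the lowest, 718 for WT replicate 2 and 1541 for WT replicate 3, the highest, and 0 at the adjusted limit from edgeR. The log2 fold change of *SYNPO2* with the block was 0.97 (unadjusted p = 0.0578 from edgeR). *XIRP1* was at -0.14 with the block, and ranged from -0.18 to 0.58 when single pigs were dropped. *MYOZ1* was at 0.042 with library size only and from -0.40 to 0.12 when single pigs were dropped, *ACTN3* from -0.89 to 0.051, and the log2 ratio of *ANKRD2* to *ANKRD1* from -0.87 to 0.40. Of 117 values of the members' log2 fold changes under alternatives, 101 kept direction and side of the limits. Most of these were of members not past the limits in the main fit, which needed only to keep their sign, whatever the change in size. Of the rest, 6 reversed, 4 newly passed the limits and 6 lost the call, all 6 of them values of *SYNPO2*. Library size only moved the median over all genes tested from -0.02 to 0.24 (log2), and gave 929 higher and 195 lower genes in place of 515 and 582. Deviations of equally numbered pigs correlated at 0.0038, 0.094 and 0.28 over genes. Not every pig correlated best with its own number, so the numbers were not taken as pairs, but this check cannot exclude pairing. The planned search of promoters for motifs was not run, and MYOZ1 to MYOZ2 and LDB3 to PDLIM3 ratios could not be made. The causes of these shifts were not tested.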

Other observations

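The genes below were chosen after their values were seen. From the partner lists, *LMCD1*, *RCAN1* and *KLHL40* were taken for their level in UCP1 KI replicate 3. *LMCD1*, a LIM protein gene of the Z-disc, was at 653, 549 and 57.8 CPM in UCP1 KI replicates 1 to 3 and at 360, 351 and 172 CPM in WT replicates 1 to 3. *RCAN1*, a calcineurin inhibitor and target gene, was at 345, 380.5 and 47.4 CPM against 174, 137 and 148 CPM, and *KLHL40*, a stabiliser of thin filament proteins, at 732, 631 and 136 CPM against 343, 378 and 385 CPM. Each was lowest in UCP1 KI replicate 3 and highest in the other UCP1 KI pigs.

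Small heat shock protein genes did not share 1 pattern. *HSPB7* was at 537, 629 and 159 CPM in UCP1 KI replicates 1 to 3 and at 613, 181 and 160.1 CPM in WT replicates 1 to 3, so its 3 high pigs were the 3 high pigs of *CSRP3*. *CRYAB*, which encodes a chaperone of desmin, was at 8326, 9789 and 2111 CPM in UCP1 KI pigs and at 4933, 2731 and 4323 CPM in WT pigs, highest in UCP1 KI replicates 1 and 2 and lowest in UCP1 KI replicate 3, as *LMCD1*, *RCAN1* and *KLHL40* were. The *CRYAB* difference on the log2 scale was 0.75 with a standard error of 0.59. *HSPB1* had its highest and lowest values in the same pigs, with 6664, 8096 and 2171 CPM against 3592, 2188 and 3373 CPM. *HSPB6* had the 3 high pigs of *HSPB7*, and *HSPB8* was highest in UCP1 KI replicates 1 and 2 and lowest in WT replicate 2. None of these genes passed the limits with all 6 pigs. *CRYAB* and *HSPB1* did without UCP1 KI replicate 3, and *HSPB6* without WT replicate 1.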
